A study of Mus musculus with 9 samples.

Results

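Kitl and Cxcl12 encode stem cell factor and the chemokine CXCL12, a pair of secreted or membrane-bound proteins through which stromal cells hold and maintain hematopoietic stem cells. Every probe set whose platform annotation gave 1 gene symbol, and that symbol Kitl or Cxcl12, was taken from 3 mouse array types. This gave 5 probe sets of 36701 that are not controls: 1 for Kitl and 3 for Cxcl12 on MG-U74A, 1 for Cxcl12 on MG-U74B and 0 on MG-U74C. Probe sets were selected by annotation, not by intensity, but the 2 genes were chosen with earlier results of these data known. The mouse stromal lines were AGM-s3-A9, which supports hematopoiesis and comes from the embryonic aorta-gonad-mesonephros (AGM) region, OP9, a supportive line from the skull cap (calvaria) of newborn mice, and AGM-s3-A7, an AGM line that does not support hematopoiesis. The labels give no treatment or added gene for any line. Each line is a single established line, hybridised once to each array type (9 arrays), so there is no replicate error and no p-value. The sources used here do not give culture conditions or passage, and a property of 1 culture cannot be told apart from a property of the line. OP9 differs from AGM-s3-A7 in tissue of origin as well as in supportive capacity.

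Stem cell factor binds the receptor tyrosine kinase KIT on stem and progenitor cells, and it is made in membrane-bound and soluble forms from alternatively spliced transcripts. CXCL12 binds CXCR4 on the same cells and holds them near stroma, while ACKR3, an atypical receptor, takes CXCL12 up and removes it. In adult bone marrow both factors come largely from perivascular reticular stromal cells. Cxcl12 is also spliced into forms that differ at their 3' end. The arrays give 1 intensity per probe set, and which spliced forms each one reads was not determined.

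The 3 arrays of a type were brought to a common distribution by quantile normalization, and intensities below are on that scale. Median deposited intensities had ranged from 42.7 to 64.5 on MG-U74A and from 21.6 to 32.6 on MG-U74B. A probe set was called detected above 49.0 on MG-U74A, 52.8 on MG-U74B or 61.6 on MG-U74C, the higher of the median of all values and the 95th percentile of 34 control probe sets that should find no target. Of 8 stromal marker genes, 7 were detected in AGM-s3-A9, 6 in OP9, where Thy1 was at 4.61, and 7 in AGM-s3-A7. Vim was not detected in any line by its probe set. Of 9 measured hematopoietic markers 0 were detected in AGM-s3-A9 and in OP9 and 1 in AGM-s3-A7 (Cd34 at 54.9), and 0 of 7 endothelial markers were detected in any line.

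The start regions of both genes are shown because they are the sequences from which these transcripts begin. Each is RefSeq's window of 300 bases on GRCm38.p6, 250 before and 50 after the listed start, on the plus strand; the Kitl window is chr10:100015571-100015870 and the Cxcl12 window is chr6:117168285-117168584. Capitals mark matches to TATAAA and GGGCGG on either strand.
Kitl: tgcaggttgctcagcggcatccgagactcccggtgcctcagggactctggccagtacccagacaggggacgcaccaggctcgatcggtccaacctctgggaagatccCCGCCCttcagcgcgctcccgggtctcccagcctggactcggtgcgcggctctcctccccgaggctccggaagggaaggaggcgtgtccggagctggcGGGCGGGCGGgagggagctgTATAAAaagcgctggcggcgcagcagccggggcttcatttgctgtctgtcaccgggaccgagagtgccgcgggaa
Cxcl12: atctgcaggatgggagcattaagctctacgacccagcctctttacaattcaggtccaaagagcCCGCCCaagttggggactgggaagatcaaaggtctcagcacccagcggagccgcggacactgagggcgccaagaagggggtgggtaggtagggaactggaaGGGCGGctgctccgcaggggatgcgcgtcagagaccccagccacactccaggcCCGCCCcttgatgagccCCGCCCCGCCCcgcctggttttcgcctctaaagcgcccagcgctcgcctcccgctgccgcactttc
The Kitl window held 1 TATAAA, with its first base at position -25 from the start, and the Cxcl12 window held 0. TATAAA occurs in 13.6% of 32851 such windows in the RefSeq table. GGGCGG, the GC box, matched 3 times in the Kitl window, with 2 of these matches overlapping, and 5 times in the Cxcl12 window, also with 2 overlapping, and 35.7% of all windows hold it at least once. Neither window held CCAAT (37.4% of windows) or ACGTG, a form of the core of the hypoxia response element (19.6%), on either strand. Other forms of that core were not searched for. These letter matches describe the windows and show no binding.

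Kitl was higher in both supportive lines than in the non-supportive line, and after quantile normalization the supportive lines had nearly the same level. Its probe set, 99577_at, read 1243 in AGM-s3-A9, 1270.1 in OP9 and 438 in AGM-s3-A7. These values were 25.4 times the detection level in AGM-s3-A9, 25.9 times in OP9 and 8.95 times in AGM-s3-A7, so the transcript was detected in the non-supportive line too. Relative to AGM-s3-A7, Kitl was higher by 2.84-fold in AGM-s3-A9 (log2 ratio 1.50) and by 2.90-fold in OP9 (log2 ratio 1.53). Both comparisons use the same AGM-s3-A7 array. Between the supportive lines the log2 ratio of AGM-s3-A9 over OP9 was -0.03, but with the deposited intensities it was 0.60, or 1.52-fold higher in AGM-s3-A9. With those intensities the median MG-U74A probe set stood at 0.52 in that comparison. In bulk RNA, fewer expressing cells and less RNA per cell cannot be told apart.

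Measurement error was described in 2 ways, neither of which covers separate cultures. The first sets probe sets of the same arrays against each other, so it leaves out error that the probe sets of an array share. For genes with at least 2 probe sets on 1 array type, the robust SD of a probe set's log2 ratio was 0.32 for AGM-s3-A9 over AGM-s3-A7 (1160 genes) and 0.33 for OP9 over AGM-s3-A7 (1134 genes). The 17 control probe sets above an intensity of 128 throughout, which are repeated on the 3 array types, gave an SD between array types of 0.22 for AGM-s3-A9 over AGM-s3-A7 and 0.17 for OP9 over AGM-s3-A7. The Kitl log2 ratios of 1.50 and 1.53 were larger than these values, and the -0.03 between the supportive lines was smaller. The 0.60 of the deposited intensities was not smaller, but there the median MG-U74A probe set stood at 0.52. Kitl has 1 probe set, so no second probe set could be set beside it.

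**Figure D1:**
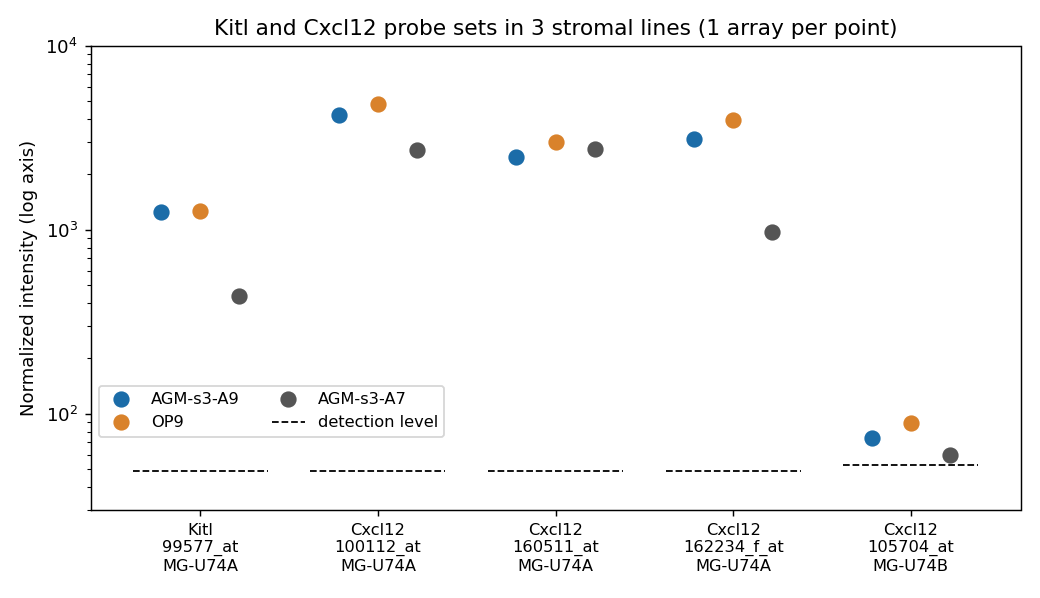
Normalized intensity (log axis) of the Kitl probe set and the 4 Cxcl12 probe sets in AGM-s3-A9, OP9 and AGM-s3-A7, 1 array per point, with the detection level of the array type as a dashed line. Kitl reads 1243 and 1270.1 in the supportive lines against 438 in AGM-s3-A7, while AGM-s3-A7 is the lowest line on 3 of the 4 Cxcl12 probe sets and lies between the others on 160511_at.

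Differences of this size were uncommon on the arrays. Of 6616 MG-U74A probe sets detected in AGM-s3-A9 or AGM-s3-A7, 60 (0.907%) were as high or higher in AGM-s3-A9 relative to AGM-s3-A7 as Kitl. Among the 925 whose mean intensity lay within 2-fold of that of Kitl, 9 were (0.973%). For OP9 over AGM-s3-A7 the same counts were 106 of 6718 (1.58%) and 24 of 925 (2.59%). As Kitl was chosen with earlier results of these data known, these shares describe its place on the arrays and are no test.

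Cxcl12 was detected in every line, the non-supportive one included, and its probe sets differed in how the lines compared. Its brightest probe set, 100112_at, read 4213 in AGM-s3-A9, 4860.2 in OP9 and 2712 in AGM-s3-A7, far above the detection level in each. Relative to AGM-s3-A7, it was higher by 1.55-fold in AGM-s3-A9 (log2 ratio 0.64) and by 1.79-fold in OP9 (log2 ratio 0.84). A second probe set, 160511_at, read 2476 in AGM-s3-A9, 3003 in OP9 and 2735 in AGM-s3-A7. On that probe set the lines were close to each other, with log2 ratios of -0.14 for AGM-s3-A9 and 0.13 for OP9 over AGM-s3-A7, both smaller than the robust SD between probe sets, and the sign for AGM-s3-A9 turned with the deposited intensities (0.32) and with scaling on the hybridization controls (0.02).

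The third probe set, 162234_f_at, gave the largest difference of the 5 from AGM-s3-A7. It read 3101 in AGM-s3-A9, 3979 in OP9 and 977 in AGM-s3-A7, higher by 3.17-fold in AGM-s3-A9 and by 4.07-fold in OP9, relative to AGM-s3-A7. The suffix _f_at marks probes that can also be shared with related sequences. Of the 277 probe sets of similar brightness, 1 reached that ratio in each comparison, namely 162234_f_at itself. The fourth probe set, 105704_at on MG-U74B, was barely above the detection level of 52.8, at 73.9 in AGM-s3-A9, 89.1 in OP9 and 59.6 in AGM-s3-A7. Its log2 ratio was 0.31 for AGM-s3-A9 (-0.06 with the deposited intensities) and 0.58 for OP9 over AGM-s3-A7, against an SD of 0.30 and 0.23 between array types for the 9 controls whose lowest array lay between 32 and 128.

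In all, 2 of the 5 probe sets (Kitl and the Cxcl12 probe set 162234_f_at) were higher by 2-fold or more in AGM-s3-A9, relative to AGM-s3-A7, and the same 2 were so in OP9. Over all detected probe sets 2.88% were higher by 2-fold or more in AGM-s3-A9 and 4.77% in OP9. The number of members is too small for a share to be read from this. Lower by at least 2-fold were 0 members in either comparison, with 2.18% of all probe sets lower in AGM-s3-A9 and 5.52% in OP9. All 5 were higher in OP9, relative to AGM-s3-A7, by 1.10-fold to 4.07-fold, and this direction held in all 7 scalings and floors tried. The floors left the 4 MG-U74A probe sets unchanged, so for these only the scalings check the direction. Between the supportive lines 0 of 5 differed by 2-fold, where 5.96% of all probe sets were higher in AGM-s3-A9 and 4.63% lower. All 5 were slightly lower in AGM-s3-A9 than in OP9, by at most 1.28-fold, but this order turned for Kitl and the 3 MG-U74A probe sets of Cxcl12 with the deposited intensities, and for Kitl also with scaling on the hybridization controls (0.17).

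**Figure D2:**
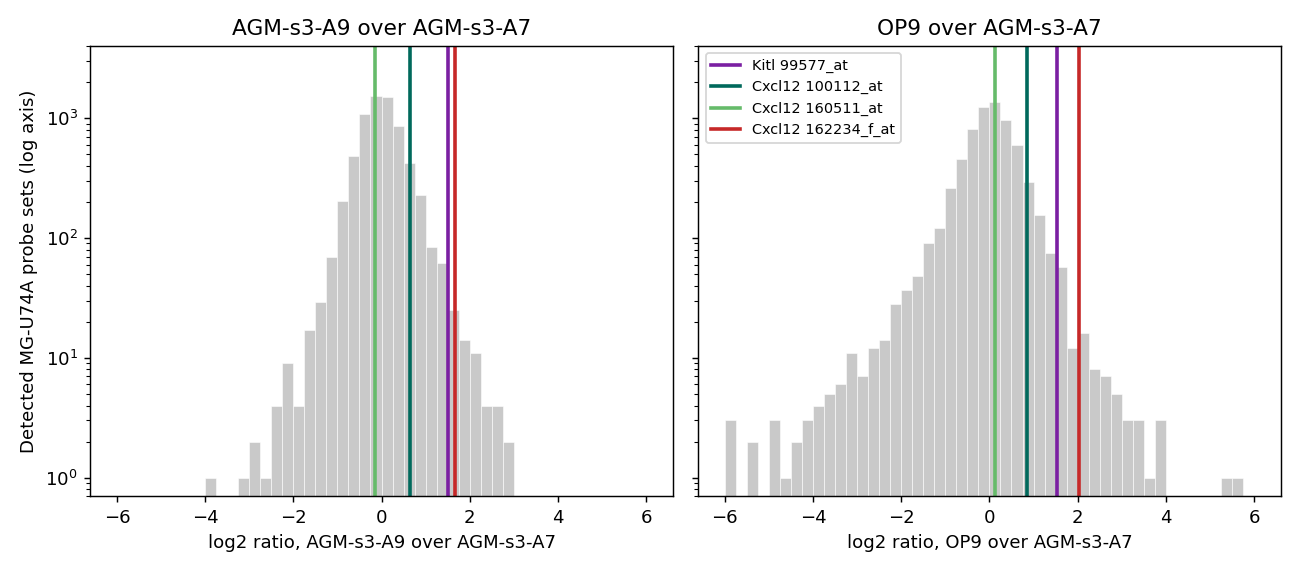
Number of MG-U74A probe sets (log axis) by log2 ratio, for AGM-s3-A9 over AGM-s3-A7 on the left and OP9 over AGM-s3-A7 on the right, with the Kitl probe set and 3 Cxcl12 probe sets as vertical lines; ratios beyond 6 either way are counted in the outermost bars. Kitl lies at 1.50 and 1.53 and 162234_f_at at 1.67 and 2.03, in the upper tail, and 160511_at lies near the centre at -0.14 and 0.13.

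The Cxcl12 probe sets of MG-U74A thus disagreed on the size of the difference from AGM-s3-A7, on arrays that held all 3. Their log2 ratios ran from -0.14 to 1.67 for AGM-s3-A9 over AGM-s3-A7, a range of 1.81, and from 0.13 to 2.03 for OP9 over AGM-s3-A7, a range of 1.89. The median gene with at least 2 detected probe sets on an array type had a range of 0.32 and 0.33 in these comparisons. Of 1160 such genes 8 (0.69%), Cxcl12 among them, had a range as wide for AGM-s3-A9 over AGM-s3-A7, and of 1134 genes 3 (0.265%) for OP9 over AGM-s3-A7. Among genes with 3 such probe sets, 3 of 135 and 1 of 131 did. For AGM-s3-A9 over OP9 the 3 probe sets lay within 0.15 of each other, from -0.36 to -0.21, where the median range over genes was 0.34. The disagreement was thus found in the comparisons with AGM-s3-A7. What the probe sets each read was not tested.

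**Figure D3:**
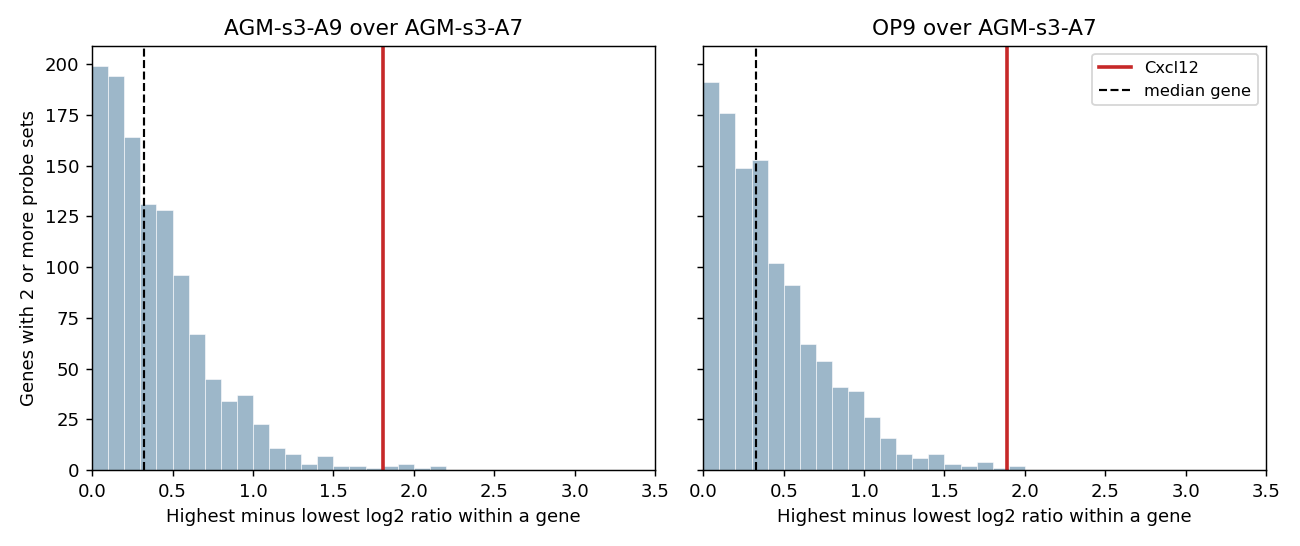
Number of genes with at least 2 detected probe sets on 1 array type by the range of log2 ratios between those probe sets, for AGM-s3-A9 over AGM-s3-A7 and OP9 over AGM-s3-A7. The range of Cxcl12 (solid line, 1.81 and 1.89) lies far above that of the median gene (dashed line, 0.32 and 0.33).

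The profile of Kitl over the 3 lines was compared with that of every probe set detected in all 3 lines on MG-U74A, by the Euclidean distance between log2 intensities centred on their mean. The 5 genes nearest to Kitl were Smc2, a condensin subunit (distance 0.044), Efnb1, which encodes ephrin-B1 (0.049), Erdr1 (0.093), the transcription factor gene Nfib (0.10) and Polr3k, an RNA polymerase III subunit (0.11). Erdr1 was read from an _f_at probe set, whose probes can be shared with related sequences. Smc2 read 135 in AGM-s3-A9, 142 in OP9 and 49.7 in AGM-s3-A7, the last just above the detection level. Of 5023 probe sets compared, 12 (0.239%) lay within 0.25 of Kitl. The profile of the brightest Cxcl12 probe set was common, with 221 of 5021 (4.4%) within 0.25. Its nearest genes were Nedd4l, Shc1, Wdfy2, 1110008P14Rik and Pithd1, at distances of 0.016 to 0.037, but 0 of these 5 stayed nearest with the deposited intensities or with 75th percentile scaling. These likenesses rest on 3 lines and 1 array each. Set against Kitl, the Cxcl12 probe set 162234_f_at was at a distance of 0.35 and ranked 21 among the 5023, 100112_at was at 0.65 (rank 138) and 160511_at at 1.26 (rank 2323).

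Receptors and processing enzymes of both ligands were read from a list of 15 genes, 8 of which were detected. This list and the later gene lists were chosen with earlier results of these data known, so no enrichment can be read from their counts. The receptor genes Kit and Cxcr4 were below the detection level in all 3 lines, at no more than 16.8 and 8.55, as were Dpp4, the peptidase that cuts the end of CXCL12 (at most 34.6), and Adam17, a sheddase that cuts many membrane-bound proteins (at most 23.1). Ackr3, the CXCL12-scavenging receptor gene, was lower in both supportive lines. It read 78.6 in AGM-s3-A9, 3.52 in OP9 and 323 in AGM-s3-A7, that is 4.10-fold lower in AGM-s3-A9 and, in OP9, at least 6.59-fold lower, relative to AGM-s3-A7, on its 1 probe set and at least 2-fold lower in each of 4 scalings. Both log2 ratios, -2.04 and the bound of -2.72, exceeded the robust SD between probe sets.

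Of the other genes of that list, Gja1 and Mmp9 differed by at least 2-fold between the supportive lines. Gja1 encodes connexin 43, a gap junction protein of stromal cells. It read 3186 in AGM-s3-A9, 380.1 in OP9 and 1759 in AGM-s3-A7, 1.81-fold higher in AGM-s3-A9 but 4.63-fold lower in OP9, relative to AGM-s3-A7, with a second probe set in the same directions. The Gja1 values are from an _f_at probe set, whose probes can be shared with related sequences. Mmp9, the gelatinase that releases soluble stem cell factor in mouse marrow, read 562 in AGM-s3-A9, 16.6 in OP9 and 116 in AGM-s3-A7, on 1 of 3 probe sets detected, or 4.83-fold higher in AGM-s3-A9 and, in OP9, at least 2.37-fold lower, relative to AGM-s3-A7, the call in OP9 being missed in 1 of 4 scalings. Ctsk, the cathepsin K gene, was lower by 2.06-fold in AGM-s3-A9 and by 2.27-fold in OP9, relative to AGM-s3-A7, though it missed 2-fold in 2 of 4 scalings for AGM-s3-A9 and in 1 for OP9. Mmp14, Adam9, Adam10 and Elane, named after their values were seen, stayed within 2-fold of AGM-s3-A7 in both supportive lines. In all 1 of 8 detected genes was at least 2-fold higher and 2 lower in AGM-s3-A9, relative to AGM-s3-A7, and 0 higher and 4 lower in OP9. Over all genes 3.08% were higher and 2.28% lower in AGM-s3-A9, and 5.14% higher and 5.98% lower in OP9. The list's median log2 ratio was -0.13 for AGM-s3-A9 and -0.98 for OP9, where all detected genes had medians of 0.01 and 0.04.

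CXCL12 is held at cell surfaces by heparan sulfate, and 13 of 16 measured genes of heparan sulfate carriers and enzymes were detected. Of the 8 detected carriers, Gpc6 and Sdc3 were higher and Sdc2 lower in both supportive lines by at least 2-fold, Gpc1 was higher in OP9, and Hspg2, Sdc1, Sdc4 and Gpc4 stayed within 2-fold. Sdc3 (syndecan 3) read 383 in AGM-s3-A9, 476 in OP9 and 147 in AGM-s3-A7, and Gpc6 (glypican 6) read 619 in AGM-s3-A9, 367 in OP9 and 94.1 in AGM-s3-A7. Sdc2 (syndecan 2) was instead lower, at 675 in AGM-s3-A9, 380.3 in OP9 and 1614 in AGM-s3-A7. Of the 13, 2 (Gpc6 and Sdc3) were at least 2-fold higher and 1 (Sdc2) lower in AGM-s3-A9, relative to AGM-s3-A7, and in OP9 3 were higher (Gpc6, Sdc3 and Gpc1) and 3 lower (Sulf1, Sdc2 and Ext2). Over all genes 3.08% were higher and 2.28% lower in AGM-s3-A9, and 5.14% higher and 5.98% lower in OP9. Gpc1 passed on 1 of its 2 detected probe sets, the other having a log2 ratio of -0.03 for OP9 over AGM-s3-A7. Sulf1, which encodes an enzyme that removes sulfate groups from heparan sulfate, was at least 6.07-fold lower in OP9, at 24.9 against 320.5 in AGM-s3-A7, and read 606 in AGM-s3-A9. The list's median log2 ratio was 0.12 for AGM-s3-A9 and -0.42 for OP9. In AGM-s3-A9 Sdc2 missed 2-fold in 2 of 4 scalings and Sdc3 in 1.

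Regulators and markers of CXCL12-rich reticular stroma were read from 24 measured genes, 19 of them detected. Foxc1, a transcription factor that maintains such cells in mouse marrow, was within 2-fold in all lines, at 102 in AGM-s3-A9, 109 in OP9 and 90.6 in AGM-s3-A7. Ebf1, which encodes early B cell factor 1, was likewise within 2-fold, at 399.6 in AGM-s3-A9, 418 in OP9 and 292 in AGM-s3-A7 on its brightest probe set. Another Ebf1 probe set was lowest in OP9, at 294 in AGM-s3-A9, 160 in OP9 and 240 in AGM-s3-A7. A further one was nearly level, at 99.6 in AGM-s3-A9, 106 in OP9 and 101 in AGM-s3-A7. Ebf3, of the same family, was higher in both supportive lines. Its brightest probe set read 116 in AGM-s3-A9, 619 in OP9 and 59.4 in AGM-s3-A7, higher by 1.95-fold in AGM-s3-A9 and by 10.4-fold in OP9, relative to AGM-s3-A7. A second Ebf3 probe set read 134 in AGM-s3-A9, 565 in OP9 and 28.0 in AGM-s3-A7. Lepr, the leptin receptor gene that marks these cells in adult marrow, was not detected by any of 3 probe sets.

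Of the 19, Epas1, which encodes HIF-2 alpha, a hypoxia-regulated transcription factor, was higher by 4.85-fold in AGM-s3-A9 and by 2.14-fold in OP9, relative to AGM-s3-A7. Twist1, a mesenchymal transcription factor gene, was lower by 2.02-fold in AGM-s3-A9 and by 2.18-fold in OP9. These were the 1 higher and the 1 lower gene in AGM-s3-A9. In OP9 4 were at least 2-fold higher (Ebf3, Pparg, Cebpa and Epas1), of which Pparg and Cebpa are adipogenic transcription factor genes, and 4 were lower (Prrx2, Grem1, Twist1 and Nes). The shares over all genes were 3.08% higher and 2.28% lower in AGM-s3-A9, and 5.14% higher and 5.98% lower in OP9, and 1 of 19 in AGM-s3-A9 is close to its share. Grem1 passed on 1 of 2 detected probe sets. The list's median log2 ratio was -0.27 for AGM-s3-A9 and -0.28 for OP9. Twist1 missed 2-fold in 2 of 4 scalings for AGM-s3-A9 and in 1 for OP9, and Nes in 2 for OP9.

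Other secreted and surface factors of the stem cell niche numbered 37 measured genes. Csf1, the gene of macrophage colony-stimulating factor, read 1260.1 in AGM-s3-A9, 1804 in OP9 and 719 in AGM-s3-A7; OP9 is known to carry a mutation that prevents functional protein. Vcam1, the adhesion molecule that binds hematopoietic cells through an integrin, read 506 in AGM-s3-A9, 907 in OP9 and 387 in AGM-s3-A7 on the brightest of 3 probe sets. Gas6, a ligand of TAM receptor kinases, read 1126 in AGM-s3-A9, 1735 in OP9 and 424 in AGM-s3-A7. Rarres2, the chemerin gene, read 877 in AGM-s3-A9, 669 in OP9 and 192 in AGM-s3-A7. Gas6 was higher by 2.66-fold in AGM-s3-A9 and by 4.09-fold in OP9, relative to AGM-s3-A7, and Rarres2 by 4.57-fold in AGM-s3-A9 and 3.49-fold in OP9, so that both, like Kitl, were at least 2-fold higher in each supportive line.

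Several factors of the list parted the supportive lines. The Wnt antagonist gene Sfrp1 read 2861 in AGM-s3-A9, 45.1 in OP9 and 882 in AGM-s3-A7. Ccn3, a matricellular protein gene, read 1622 in AGM-s3-A9, 5.84 in OP9 and 668 in AGM-s3-A7. Sfrp1 was higher by 3.25-fold in AGM-s3-A9 and in OP9 at least 16.7-fold lower, relative to AGM-s3-A7, and Ccn3 was higher by 2.43-fold in AGM-s3-A9 and, in OP9, at least 13.6-fold lower. Higher than in AGM-s3-A7 by at least 2-fold were 6 of 26 detected genes in AGM-s3-A9 (Rarres2, Sfrp1, Gas6, Hgf, Ccn3 and Igf1) and 7 of 28 in OP9 (Dlk1, Gas6, Jag1, Rarres2, Csf1, Il7 and Vcam1). Igf1 passed on 1 of its 4 probe sets and in 3 of 4 scalings, Vcam1 on 1 of 3 probe sets and Jag1 on 1 of 2 detected. Lower were 2 in AGM-s3-A9, Postn (3.19-fold) and Dlk1 (2.03-fold, missed in 2 of 4 scalings). In OP9 5 were lower, Sfrp1, Ccn3, Angpt2, Igfbp2 and Igf2, of which Igf2, like Jag1 and Il7 among the higher, is named after its value was seen. Of all genes 3.08% were at least 2-fold higher and 2.28% lower in AGM-s3-A9, with 5.14% higher and 5.98% lower in OP9. As the 4 lists were chosen with earlier results of these data known, counts above these shares show no enrichment. Angpt1, the angiopoietin gene linked to stem cell maintenance, read 85.1 in AGM-s3-A9, 86.9 in OP9 and 129.7 in AGM-s3-A7 and is also named after its value was seen. The list's median log2 ratio was 0.36 for AGM-s3-A9 and 0.18 for OP9. Between the supportive lines 15 of 67 detected genes of the 4 lists were at least 2-fold higher and 8 lower in AGM-s3-A9 against OP9, where 6.58% of all genes were higher and 5.06% lower. Over the 4 lists together 10 genes were higher and 6 lower in AGM-s3-A9, relative to AGM-s3-A7. This split depended on the scaling: it was 22 higher and 4 lower with the deposited intensities and 19 higher and 2 lower with scaling on the hybridization controls. The median log2 ratio of all detected MG-U74A probe sets also rose, from -0.02 to 0.62 with the deposited intensities and 0.35 with the hybridization controls. Shares over all genes are not given for these 2 scalings.

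**Figure D4:**
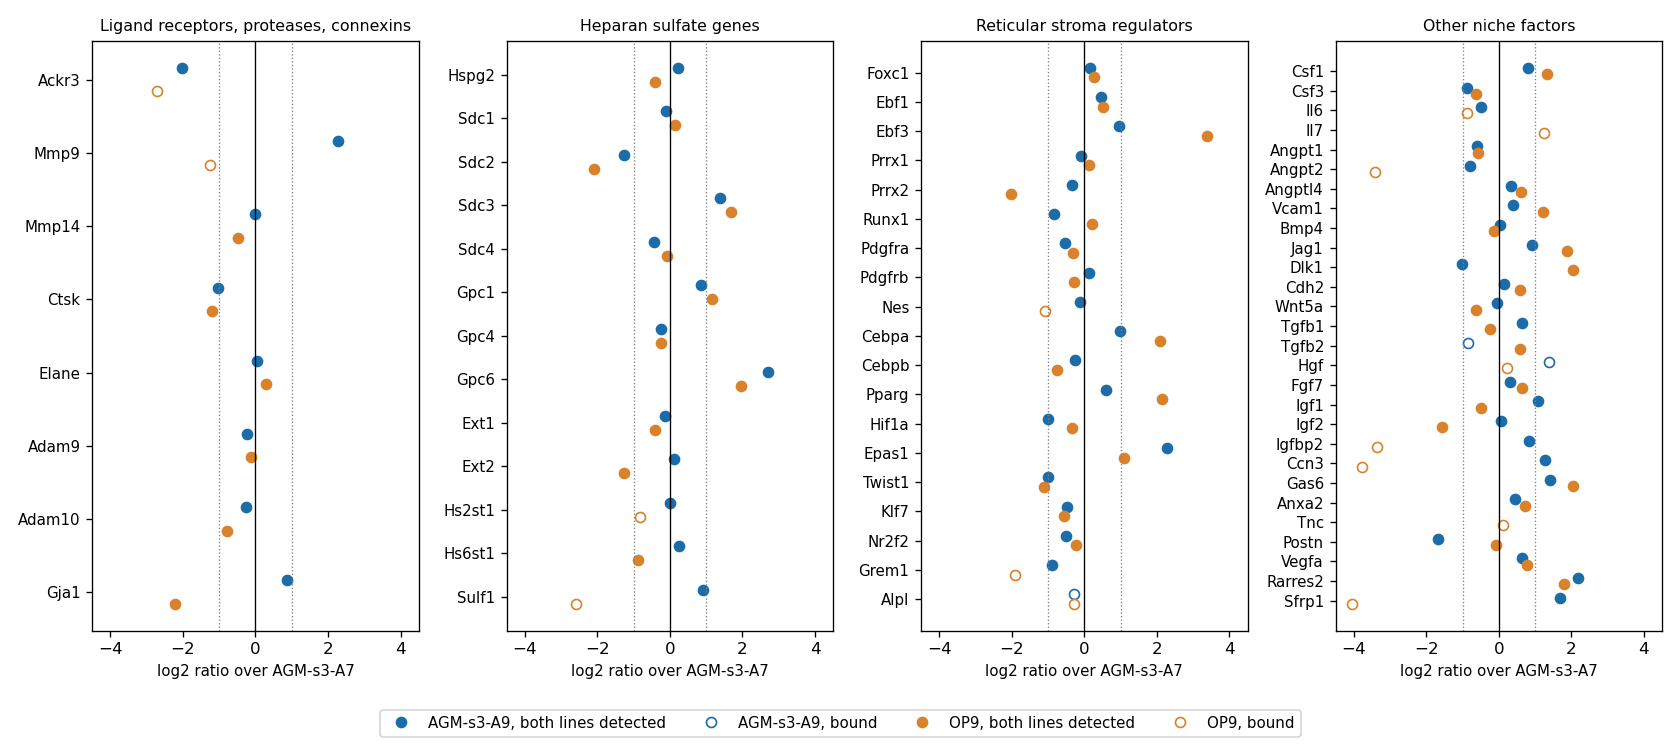
log2 ratio over AGM-s3-A7 of each detected gene of 4 lists, in AGM-s3-A9 (blue) and OP9 (orange), 1 array each; filled points are measured in both lines, open points are bounds against a line at or below the detection level, and dotted lines mark 2-fold. Ackr3 lies at -2.04 and at a bound of -2.72, Gas6 and Rarres2 lie above 2-fold in both lines, and Sfrp1 and Ccn3 lie on opposite sides in the 2 lines.

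The genes beside Kitl and Cxcl12 on their chromosomes were read to show whether the neighbourhood differed in the same direction. Taking the 5 nearest genes on each side that were detected in any line, in the gene order of GRCm38.p6, 0 of 10 neighbours of Kitl on chromosome 10 were higher by 2-fold or more in AGM-s3-A9, relative to AGM-s3-A7, and 0 of the 9 that could be compared in OP9. Over all genes 3.08% were so in AGM-s3-A9 and 5.14% in OP9, and on so few neighbours a count of 0 cannot be told apart from these shares. The neighbours' log2 ratios reached at most 0.83 in AGM-s3-A9 (Dusp6, a phosphatase gene) and 0.59 in OP9 (Tmtc3). Dcn, the decorin gene and the fifth of them on one side, was lower by 6.89-fold in AGM-s3-A9 and, in OP9, at least 27.5-fold lower, against the direction of Kitl. Ccdc59 was 2.08-fold lower in OP9. The median of the other detected genes on chromosome 10 was 0.03 for AGM-s3-A9 over AGM-s3-A7 (440 genes) and -0.10 for OP9 over AGM-s3-A7 (434 genes).

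The neighbours of Cxcl12 on chromosome 6 likewise included 0 of 9 higher by 2-fold or more in AGM-s3-A9 and 0 of 10 in OP9. Against the shares of 3.08% and 5.14% over all genes, these counts are also too small to be read. In AGM-s3-A9 the nearest on one side, Depp1, was 2.20-fold lower than in AGM-s3-A7, and Marchf8 was at least 2.04-fold lower. The median log2 ratio of the 9 was -0.62 in AGM-s3-A9, opposite in sign to the 0.64 of the brightest Cxcl12 probe set. In OP9 their log2 ratios ran from -0.98 to 0.84 around a median of 0.00097. Over the whole chromosome the median of 484 other genes was 0.37 for OP9 over AGM-s3-A7, and 17.6% of them were at least 2-fold higher, against 5.14% of all genes. For AGM-s3-A9 over AGM-s3-A7 the chromosome median was -0.03 (457 genes). The Cxcl12 log2 ratios of 0.13, 0.84 and 2.03 in OP9 stand beside this shift, and its part in them was not tested.

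**Figure D5:**
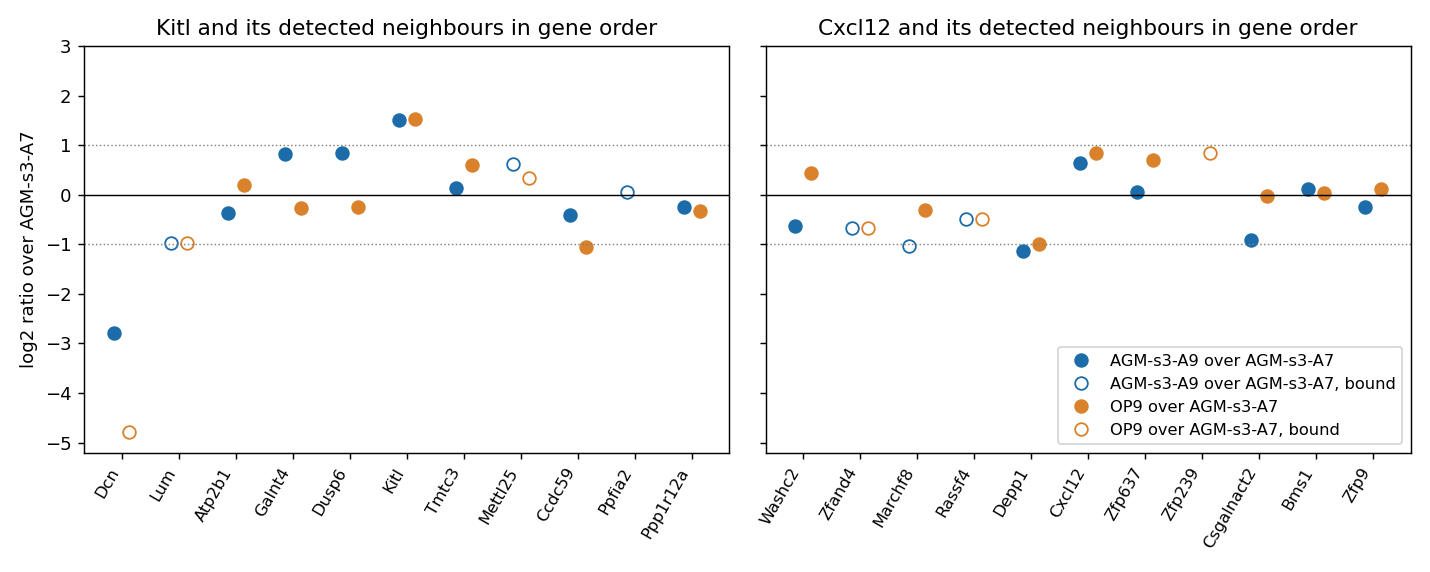
log2 ratio over AGM-s3-A7 of Kitl, Cxcl12 (brightest probe set) and their 5 nearest detected genes on each side, in gene order, for AGM-s3-A9 and OP9; open points are bounds and dotted lines mark 2-fold. Kitl stands at 1.50 and 1.53 with 0 neighbours above 2-fold, and Dcn lies lowest.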

How the data were processed

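Each of 3 lines was hybridised once to MG-U74A, MG-U74B and MG-U74C Affymetrix arrays; per the labels' protocols, biotinylated cRNA was made from 6 ug of total RNA. The authors deposited linear intensities, 1 per probe set and array; their scanner software, background handling, summarisation and scaling are not stated in the sources used here. Trimmed means differed between arrays of a type by up to 61.1%, so log2 intensities were quantile-normalized within each type, which removes any general shift between lines. Values at or below the detection level were set to it, and folds against it are bounds. Each gene of a list was read from its brightest probe set. Of 15964 symbols 99.8% were in the RefSeq table of GRCm38.p6, used for gene order.

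Members and the 4 gene lists (102 genes in all, 92 measured) were chosen with earlier results of these data known. Genes named were the 5 most similar to each member, list members at least 2-fold apart, up to the 6 largest per list and pair, and a fixed set of list genes always given (Kit, Cxcr4, Ackr3, Dpp4, Adam17, Mmp9, Foxc1, Ebf1, Ebf3, Lepr, Csf1 and Vcam1). The calculation (Python 3.11.15, NumPy 2.4.6, pandas 2.3.3) was tested on simulated data. Alternatives were other scalings, floors, probe set rules, and leaving out probe sets of possible cross-hybridisation. With 1 array per line and type no test was possible; the number of arrays limits the precision.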

Additional observations from a re-analysis of the deposited data

How the results depend on the processing

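No paired analysis was possible because each line has 1 array per type. The Kitl probe set and the Cxcl12 probe set 162234_f_at stayed at least 2-fold above AGM-s3-A7, for AGM-s3-A9 as for OP9, under all 7 settings (scalings and floors), with Kitl ratios of 2.69 to 4.47 for AGM-s3-A9 and 2.75 to 3.24 for OP9. Both probe sets read far above every floor, so the floors could not change their ratios and only the 4 scalings check them. The Cxcl12 probe set 100112_at reached 2-fold in 1 setting, for OP9 with scaling on the hybridization controls. With the deposited intensities, the Kitl log2 ratio was 2.16 for AGM-s3-A9 over AGM-s3-A7 and, over OP9, 0.60, while the median MG-U74A probe set stood at 0.62 and 0.52. List genes at least 2-fold higher then numbered 22 for AGM-s3-A9 over AGM-s3-A7 (10 after quantile normalization) and, over OP9, 23 (15), and 0 of the 5 genes nearest to Cxcl12 remained nearest. With 75th percentile scaling, Cxcl12 had 0.21 for AGM-s3-A9 over AGM-s3-A7 and, over OP9, -0.56, and again 0 of its 5 nearest genes remained. With hybridization controls, Kitl had 1.86 for AGM-s3-A9 over AGM-s3-A7, where the median MG-U74A probe set stood at 0.35, and the list counts there were 19 higher and 2 lower. A floor at the 75th percentile left 5 list genes lower in AGM-s3-A9 than in OP9, against 8, as fewer genes were above it. Shares over all genes are given for the main setting only, so list counts under other settings have no share to be read against. The median over Cxcl12 probe sets without 162234_f_at, chosen after seeing the data, was 0.31 for AGM-s3-A9 over AGM-s3-A7, against 0.47 for the median with it and 0.64 for the brightest probe set. Apart from the floor and that median, the cause was not tested. The other 84 values for these comparisons, and 47 for single probe sets, stayed within the probe set error or close to their count, while 7 for single probe sets moved further. The 105704_at probe set, at most 1.69 times its detection level, is limited by signal over background.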
